A study of Mus musculus with 12 samples.

Results

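This section describes the IkB family and the NF-kB subunit genes in mouse bone marrow-derived macrophages given hepcidin. The genes were chosen by name, with earlier results of these data known. They are the classical IkB genes Nfkbia, Nfkbib and Nfkbie, the atypical IkB genes Nfkbiz and Bcl3, and the subunit genes Nfkb1, Nfkb2, Rel, Rela and Relb. Of these 10 genes, 9 had a probe set with a symbol in the platform's gene table, out of 24675 genes in all, and Nfkb1 was not analysed here. No filter on low values was applied, so all 9 were tested.

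The 12 arrays formed 4 groups of 3: hepcidin for 3 h, PBS for 3 h, hepcidin for 1 h and PBS for 1 h. All groups were primary macrophages grown from the marrow of wild-type mice, 8 to 10 weeks old and of unnamed strain, with L cell-conditioned medium as the source of M-CSF, and all spent 1 h in DMEM alone before the peptide or PBS. Hepcidin, the peptide hormone of iron balance, is listed at 1 µg/ml in one protocol of the labels and at 10 µg/ml in another, so its dose is not settled. Whether the 3 arrays of each group stand for different mice or dishes is not recorded in the labels, so the p-values cover only how much these arrays vary, which may be technical variation.

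NF-kB is a family of dimeric transcription factors that rests in the cytoplasm of macrophages, held there by IkB proteins. A signal from a receptor such as a Toll-like or TNF receptor activates the IKK kinases, the classical IkB proteins are degraded, and the freed dimers enter the nucleus. Many of the genes that NF-kB switches on encode its own inhibitors and subunits, so the mRNAs of this family can change with the pathway, and their proteins feed back on it. The arrays measured mRNA only, and neither the activity of NF-kB nor its proteins. The atypical IkB proteins are mostly made only after stimulation and act in the nucleus on DNA-bound dimers.

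Values are on the log2 scale as deposited, at which 1 unit is a 2-fold difference. Array medians lay between 4.84 and 4.94, arrays of a group correlated at r = 0.994 to 0.997, and 3 arrays a group limit the precision. All 8 macrophage markers with a named probe set, Adgre1, Csf1r and Cd68 among them, lay above the median gene, and their mean stood between 10.80 and 10.98 on every array. The mean of 5 lymphocyte markers stood between 3.53 and 3.76 and that of 4 mast cell markers between 3.29 and 3.52, with 0 of either above the median gene. Above it were 3 of 8 neutrophil and precursor markers (Elane, Mpo and Ngp), 1 of 6 dendritic cell markers (Itgax) and 2 of 5 fibroblast markers (Col1a1 and Col1a2). The ranges of the means of each of these lists overlapped between hepcidin and PBS at 3 h, and at 1 h all but the dendritic cell list did. That list had 4.77 to 4.88 with hepcidin, against 4.94 to 4.98 with PBS, and its part in the results was not tested. At 3 h 2 of the 8 macrophage markers rose with hepcidin, Cd14 by 0.80 and Spi1 by 0.30, where 2.8% of all genes did. Mertk was lower, at -1.08, where 2.53% of all genes were. At 1 h 0 of the 8 passed in limma, where 0.527% of all genes rose and 0.0324% fell. An unadjusted p under 0.05 was found for 5 of the 8 at 3 h and for 1 at 1 h, where 16.9% and 6.82% of all genes had one. The part of these markers in the results below was not tested. In such bulk samples a change in the make-up of the cells and a change of RNA per cell cannot be told apart.

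The sequences before the gene starts are shown first, because several of these genes are known targets of NF-kB itself and differ in the letters they hold. The RefSeq table, build GRCm38.p6, had windows of 300 bases, 250 before and 50 after the annotated start, for 7 of the genes, and Nfkbiz, Relb and Nfkb1 were not in it. The motif GGG, any 2 bases, then TTTCC, on either strand, stood in the windows of 3 of the 7, namely Nfkbia, Nfkb2 and Rel, and in 1.63% of all 32851 windows. The kB consensus was sought too: GGG, A or G, any 2 bases, C or T at each of 2 places, then CC. It is the more common motif, but asks for A or G where the first allows any base. With it 5 of the 7 had a match (Nfkbie and Bcl3 in addition), against 8.46% of all windows, and Nfkbib and Rela had none. The matches of the 2 motifs overlap, and counted by gene the shares were 1.89% and 9.55% of 27025 genes. A match is a description of the letters and no evidence of binding. The 250 bases before the start are printed 5′ to 3′ on the gene's strand, with matches to either motif in capitals, for the 4 genes with a match before the start and for both without any. They lie at chr12:55492648-55492897 (- strand) for Nfkbia, chr17:45555450-45555699 (+ strand) for Nfkbie, chr19:46304487-46304736 (+ strand) for Nfkb2, chr11:23770970-23771219 (- strand) for Rel, chr7:28766645-28766894 (- strand) for Nfkbib and chr19:5637291-5637540 (+ strand) for Rela.
Nfkbia: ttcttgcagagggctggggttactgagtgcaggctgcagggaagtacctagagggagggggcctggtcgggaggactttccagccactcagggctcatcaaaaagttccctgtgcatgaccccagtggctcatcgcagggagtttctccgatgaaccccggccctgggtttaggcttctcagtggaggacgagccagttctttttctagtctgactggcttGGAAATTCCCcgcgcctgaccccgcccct
Nfkbie: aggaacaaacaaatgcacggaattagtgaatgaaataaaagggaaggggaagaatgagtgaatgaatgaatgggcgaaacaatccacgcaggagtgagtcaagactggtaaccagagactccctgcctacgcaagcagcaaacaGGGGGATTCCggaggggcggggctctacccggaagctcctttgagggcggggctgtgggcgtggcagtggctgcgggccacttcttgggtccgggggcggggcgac
Nfkb2: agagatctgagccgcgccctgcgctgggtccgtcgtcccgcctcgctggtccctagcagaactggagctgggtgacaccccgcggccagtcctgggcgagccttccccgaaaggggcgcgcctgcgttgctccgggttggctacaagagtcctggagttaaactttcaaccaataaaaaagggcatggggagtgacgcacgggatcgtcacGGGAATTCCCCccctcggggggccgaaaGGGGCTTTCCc
Rel: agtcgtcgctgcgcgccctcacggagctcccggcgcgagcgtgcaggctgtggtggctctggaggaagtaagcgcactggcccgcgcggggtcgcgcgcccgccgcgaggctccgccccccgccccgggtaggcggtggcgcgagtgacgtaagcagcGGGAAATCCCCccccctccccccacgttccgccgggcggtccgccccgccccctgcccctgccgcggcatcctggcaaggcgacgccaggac
Nfkbib: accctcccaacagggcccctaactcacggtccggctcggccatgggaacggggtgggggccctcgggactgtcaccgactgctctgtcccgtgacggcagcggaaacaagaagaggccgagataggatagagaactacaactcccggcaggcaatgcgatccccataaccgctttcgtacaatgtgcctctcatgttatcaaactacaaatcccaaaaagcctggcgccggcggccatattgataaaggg
Rela: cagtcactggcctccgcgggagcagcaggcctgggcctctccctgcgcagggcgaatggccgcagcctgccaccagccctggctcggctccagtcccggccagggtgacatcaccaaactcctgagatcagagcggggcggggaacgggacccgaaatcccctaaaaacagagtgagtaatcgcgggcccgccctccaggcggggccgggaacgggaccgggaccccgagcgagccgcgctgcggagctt
Counted from the start, with the base before it as -1, the Nfkbia match GGAAATTCCC lay at -29 to -20 and the Nfkbie match GGGGGATTCC at -106 to -97. Nfkb2 held GGGAATTCCC, which reads the same on both strands, at -39 to -30 and GGGGCTTTCC at -11 to -2. Its other windows, not printed, overlap and share the match GGGACTTTCC. Overlapping matches of Rel, GGGAAATCCC among them, lay between -92 and -82. The match in Bcl3, GGGAAGTCCC, lay just after the start, outside the bases printed.

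Hepcidin raised all 9 genes at 3 h and 7 of them at 1 h, with rises from 8.43-fold for Nfkbiz at 1 h down to 1.30-fold for Rela at 3 h. The threshold for a rise or a fall was an adjusted p below 0.05 in limma, with the Benjamini-Hochberg method over all 24675 genes. Of the members, 9 of 9 rose at 3 h and 7 of 9 at 1 h, where 2.8% and 0.527% of all genes did, and 0 fell, where 2.53% and 0.0324% of all genes did. The members were chosen with earlier results of these data known, so their contrasts with all genes are no independent support. The 3 hepcidin arrays lay above the 3 PBS arrays in all 9 members at both times, an order that 11.8% of all genes had at 3 h and 6.47% at 1 h. The median log2 change of the members was 1.45 at 3 h and 0.98 at 1 h, beside 0.02 and -0.00 over all genes tested. The plot of expression by array shows these values.

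**Figure D1:**
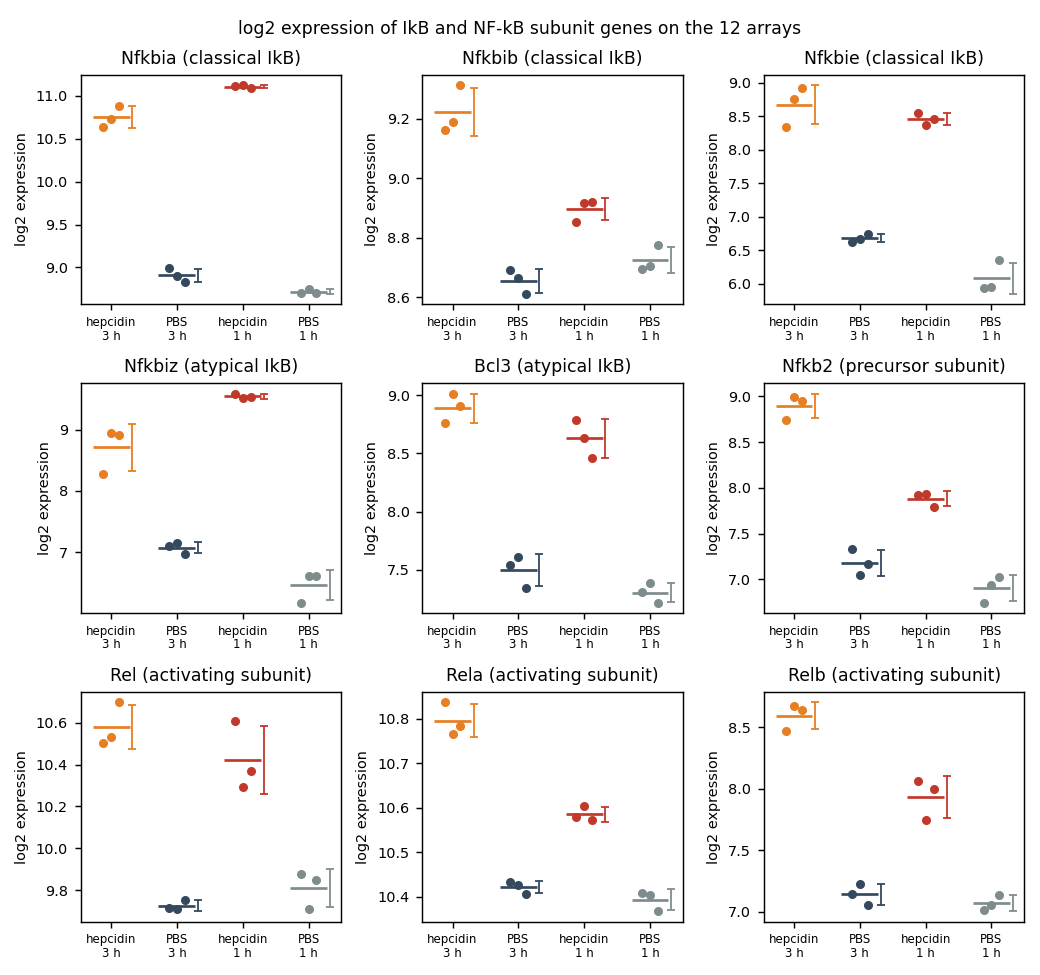
The log2 expression of the 9 genes is plotted for each array, in the groups hepcidin 3 h, PBS 3 h, hepcidin 1 h and PBS 1 h, with points for arrays, lines for group means and bars for 1 SD (n = 3 arrays a group); each panel has its own axis, which does not start at 0. In every panel the 3 hepcidin points lie above the 3 PBS points of the same time, and Nfkbiz with hepcidin spreads from 8.27 to 8.94 at 3 h.

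Among the classical inhibitors, Nfkbia encodes IkBalpha, the inhibitor that NF-kB restores within minutes to hours of its own activation. At 3 h Nfkbia read 10.64, 10.73 and 10.88 with hepcidin, against 8.99, 8.91 and 8.83 with PBS. With hepcidin at 1 h it read 11.11, 11.12 and 11.09, against 8.71, 8.75 and 8.70 with PBS. The groups lay far apart at both times, and the hepcidin arrays of 1 h were nearly equal. The rise was 1.84 (SE 0.07, 3.59-fold, adjusted p = 3.49e-08) at 3 h and 2.39 (SE 0.07, 5.24-fold, adjusted p = 9.43e-09) at 1 h, which ranked 34 and 13 among the rises of all genes.

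Nfkbie encodes IkBepsilon, which holds mainly dimers with RelA and c-Rel. With hepcidin at 3 h it read 8.35, 8.75 and 8.92, against 6.62, 6.67 and 6.75 with PBS. At 1 h it read 8.54, 8.37 and 8.45 with hepcidin, against 5.94, 5.96 and 6.35 with PBS. The hepcidin arrays of both times overlapped, while the PBS arrays of 3 h lay above those of 1 h. The rise was 1.99 (SE 0.14, 3.98-fold, adjusted p = 2.69e-06) at 3 h and 2.37 (SE 0.14, 5.18-fold, adjusted p = 1.58e-06) at 1 h.

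Nfkbib encodes IkBbeta, an inhibitor that is less tied to NF-kB's own transcription and can also protect DNA-bound dimers. At 3 h it read 9.16, 9.19 and 9.31 with hepcidin, against 8.69, 8.66 and 8.61 with PBS. The 1 h arrays gave 8.85, 8.92 and 8.92 with hepcidin, against 8.70, 8.70 and 8.77 with PBS. The groups of 1 h did not overlap but lay close together. It rose by 0.57 (SE 0.06, 1.48-fold, adjusted p = 1.50e-04) at 3 h and stood at 0.17 (SE 0.06, 1.13-fold, adjusted p = 0.624) at 1 h.

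Of the atypical inhibitors, Nfkbiz encodes IkBzeta, a nuclear cofactor that several secondary response genes of macrophages need. The 3 h arrays gave 8.27, 8.94 and 8.92 with hepcidin, against 7.10, 7.16 and 6.97 with PBS. With hepcidin at 1 h it read 9.59, 9.51 and 9.53, against 6.18, 6.61 and 6.61 with PBS. Hepcidin replicate 1 was the low array at 3 h and PBS replicate 1 the low array at 1 h. The rise was 1.63 (SE 0.16, 3.11-fold, adjusted p = 5.38e-05) at 3 h and 3.08 (SE 0.16, 8.43-fold, adjusted p = 5.66e-07) at 1 h. Among the rises of all genes it ranked 50 at 3 h and 4 at 1 h.

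Bcl3 encodes a nuclear IkB protein that works with p52 homodimers among others. With hepcidin at 3 h it read 8.76, 9.01 and 8.90, against 7.54, 7.61 and 7.34 with PBS. At 1 h it read 8.79, 8.63 and 8.46 with hepcidin, against 7.31, 7.39 and 7.22 with PBS. The hepcidin arrays of the 2 times overlapped, as did the PBS arrays. The rise was 1.39 (SE 0.10, 2.62-fold, adjusted p = 3.89e-06) at 3 h and 1.32 (SE 0.10, 2.50-fold, adjusted p = 1.62e-05) at 1 h.

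Among the subunits, Nfkb2 encodes p100, which inhibits NF-kB as a whole protein and yields the subunit p52 when processed. At 3 h it read 8.74, 9.00 and 8.95 with hepcidin, against 7.33, 7.05 and 7.17 with PBS. The 1 h arrays gave 7.93, 7.93 and 7.79 with hepcidin, against 6.75, 6.94 and 7.02 with PBS. The hepcidin arrays of 3 h lay above all others. The rise was 1.71 (SE 0.10, 3.28-fold, adjusted p = 5.97e-07) at 3 h and 0.98 (SE 0.10, 1.97-fold, adjusted p = 2.10e-04) at 1 h.

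Relb encodes the partner of p52 in the non-canonical pathway. The 3 h arrays gave 8.47, 8.67 and 8.64 with hepcidin, against 7.15, 7.22 and 7.05 with PBS. With hepcidin at 1 h it read 8.07, 7.74 and 8.00, against 7.01, 7.06 and 7.14 with PBS. As for Nfkb2, the hepcidin arrays of 3 h lay above those of 1 h. The rise was 1.45 (SE 0.09, 2.73-fold, adjusted p = 1.17e-06) at 3 h and 0.87 (SE 0.09, 1.82-fold, adjusted p = 3.42e-04) at 1 h.

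Rel encodes c-Rel, a subunit with a transactivation domain that macrophages use for cytokine genes such as Il12b. With hepcidin at 3 h it read 10.50, 10.53 and 10.70, against 9.71, 9.71 and 9.75 with PBS. At 1 h it read 10.61, 10.30 and 10.37 with hepcidin, against 9.88, 9.71 and 9.85 with PBS. The hepcidin arrays of the times overlapped. The rise was 0.85 (SE 0.09, 1.81-fold, adjusted p = 7.95e-05) at 3 h and 0.61 (SE 0.09, 1.53-fold, adjusted p = 0.00491) at 1 h, and with only the 1 h groups in the fit the adjusted p at 1 h was 0.0585.

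Rela encodes p65, the main activating subunit, whose activity is set largely by its location rather than its mRNA. At 3 h it read 10.84, 10.77 and 10.78 with hepcidin, against 10.43, 10.43 and 10.41 with PBS. The 1 h arrays gave 10.58, 10.60 and 10.57 with hepcidin, against 10.41, 10.40 and 10.37 with PBS. The arrays of each group lay within a narrow band, so that a small difference stood clear of the spread. It rose by 0.37 (SE 0.06, 1.30-fold, adjusted p = 0.00143) at 3 h and stood at 0.19 (SE 0.06, 1.14-fold, adjusted p = 0.345) at 1 h. At 1 h it passed with a trended and robust prior (adjusted p = 0.0273) and without moderation of the variance (adjusted p = 0.00524), and over the other alternatives run its adjusted p was over the threshold.

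**Figure D2:**
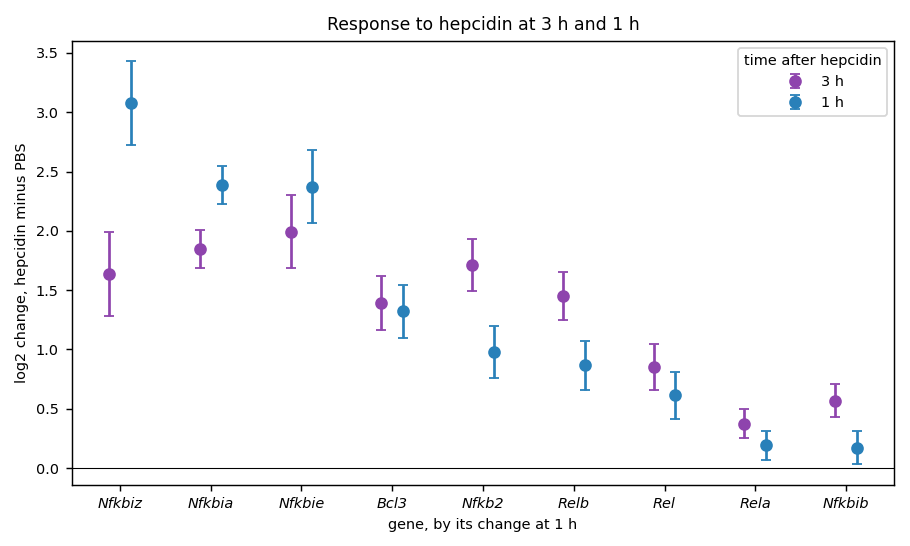
The log2 change between hepcidin and PBS (vertical axis) is plotted for each gene at 3 h and at 1 h, with points for limma's estimates and bars for 95% intervals (n = 3 arrays a group). Nfkbiz stands highest at 1 h, at 3.08, while at 3 h Nfkbie, Nfkbia, Nfkb2 and Nfkbiz lie between 1.99 and 1.63.

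The order of the changes was set out through differences between 2 genes on the same array, which cancel whatever an array adds to both. At 3 h, 29 of the 36 pairs of genes differed in their change by over 2 SE, and at 1 h 33 did. These are counts of overlapping pairs and carry no test. At 1 h Nfkbiz stood alone at the top, 0.69 (SE 0.16) above Nfkbia. Nfkbia and Nfkbie did not differ beyond their spread (0.02, SE 0.15), and both stood above Bcl3, Nfkbie by 1.05 (SE 0.18). Below Bcl3 came Nfkb2 and Relb, which did not differ beyond their spread (0.11, SE 0.12), then Rel. Last came Rela and Nfkbib, which also did not differ beyond it (0.02, SE 0.05).

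At 3 h the upper part of this order had closed up. The neighbours Nfkbie and Nfkbia (0.15, SE 0.15), Nfkbia and Nfkb2 (0.13, SE 0.09), and Nfkb2 and Nfkbiz (0.08, SE 0.14) did not differ beyond their spread. The same held for Nfkbiz and Relb (0.18, SE 0.15) and for Relb and Bcl3 (0.06, SE 0.11). These genes were not all level, since most pairs further apart differed by over 2 SE. Nfkbie stood above Bcl3 by 0.60 (SE 0.18), Nfkbia by 0.45 (SE 0.10) and Nfkb2 by 0.32 (SE 0.12). The exceptions were Nfkbia and Nfkbiz (0.21, SE 0.16) and Nfkbiz and Bcl3 (0.24, SE 0.16). A step of 0.54 (SE 0.12) separated Bcl3 from Rel. Nfkbib stood 0.29 (SE 0.09) below Rel and 0.19 (SE 0.05) above Rela.

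Whether a response had shrunk or grown by 3 h was tested as the hepcidin effect at 3 h minus the effect at 1 h, which draws on all 12 arrays. Of the 9 genes, 2 had a smaller response at 3 h and 1 a larger one, where 0.507% and 0.523% of all genes did and 1.03% passed in either direction. The response of Nfkbiz fell by 1.44 on the log2 scale (SE 0.23, 95% interval -1.95 to -0.94, adjusted p = 0.0109). That of Nfkbia fell by 0.55 (SE 0.10, interval -0.77 to -0.32, adjusted p = 0.0277). That of Nfkb2 was larger by 0.73 (SE 0.14, interval 0.43 to 1.04, adjusted p = 0.0296).

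The call of Nfkbiz held whichever array was left out, with adjusted p between 0.00644 and 0.0379, but not without moderation of the variance (0.0575). Those of Nfkbia and Nfkb2 rested on the full set: with 1 array left out, Nfkbia passed in 2 of 12 cases (the hepcidin or the PBS array of 3 h replicate 3) and Nfkb2 in 3 of 12 (hepcidin 3 h replicate 1 and the replicate 1 arrays of PBS at both times). Their adjusted p reached 0.081 and 0.0848. The differences themselves stayed between -0.61 and -0.49 for Nfkbia and between 0.66 and 0.81 for Nfkb2.

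The other 6 genes did not pass, and their intervals show what the arrays leave possible. Relb was larger by 0.59 (interval 0.30 to 0.87, adjusted p = 0.0631) and Nfkbib by 0.40 (interval 0.20 to 0.59, adjusted p = 0.0714). Both passed with a trended and robust prior and among genes above the median mean. Nfkbie stood at -0.38 (interval -0.81 to 0.05), Rel at 0.24 (interval -0.03 to 0.52), Rela at 0.18 (interval 0.01 to 0.35) and Bcl3 at 0.07 (interval -0.25 to 0.38), with adjusted p from 0.465 to 0.926. Without moderation of the variance Rela passed (adjusted p = 0.0338), as did Nfkbib (0.0339).

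Set against each other within arrays, the 2 ends of this order lay far apart. Nfkb2 stood 2.17 (SE 0.20) above Nfkbiz and 1.28 (SE 0.13) above Nfkbia in the difference of effects. Nfkbia and Nfkbiz themselves differed by 0.89 (SE 0.23). Among the classical inhibitors, Nfkbib stood 0.94 (SE 0.06) above Nfkbia. Of 8 neighbours in the order of these differences, only Nfkbia and Nfkbiz differed by over 2 SE.

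**Figure D3:**
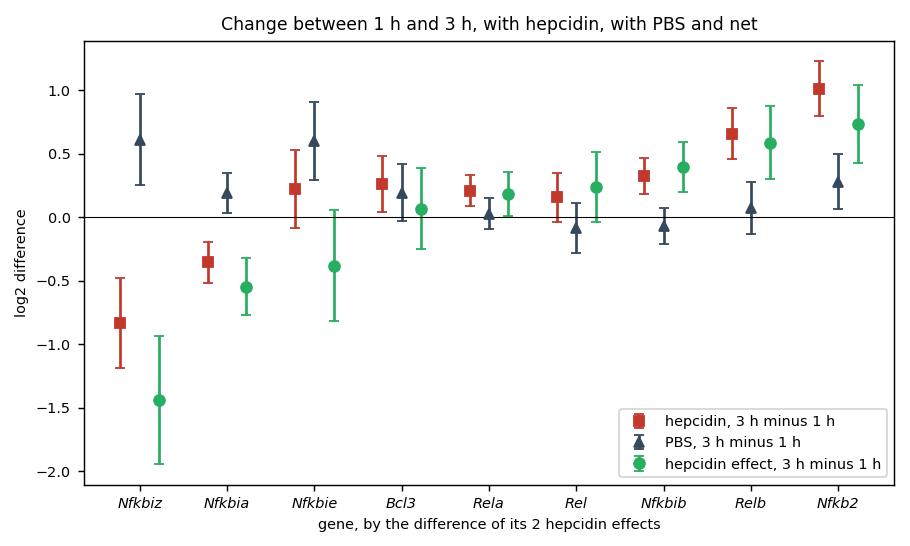
For each gene the log2 difference between 3 h and 1 h is plotted with hepcidin, with PBS, and net as the hepcidin effect at 3 h minus that at 1 h, with points for limma's estimates and bars for 95% intervals (n = 3 arrays a group). Nfkbiz is at -0.83 with hepcidin and 0.61 with PBS, and the first minus the second is its net -1.44. Nfkb2 is at 1.01 with hepcidin and 0.28 with PBS.

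The parts behind each net difference were not the same. With hepcidin, 5 genes passed between 3 h and 1 h, 3 higher and 2 lower at 3 h, where 2.44% and 2.61% of all genes did and 5.05% passed in either direction. Nfkb2 was higher at 3 h by 1.01 (SE 0.10, adjusted p = 8.96e-05), Relb by 0.66 (SE 0.09, adjusted p = 0.0012) and Nfkbib by 0.33 (SE 0.06, adjusted p = 0.0111). Nfkbiz was lower at 3 h, at -0.83 (SE 0.16, adjusted p = 0.0108), and so was Nfkbia, at -0.36 (SE 0.07, adjusted p = 0.0145). The calls of Nfkbia and Nfkbib were lost with only the hepcidin groups in the fit (adjusted p = 0.0886 and 0.086). That of Nfkbia was also lost without hepcidin 3 h replicate 1 (0.0541) or hepcidin 1 h replicate 2 (0.0612), and that of Nfkbiz without moderation of the variance (0.0502). Rela, at 0.21 with its groups not overlapping, had an adjusted p of 0.054, and passed without moderation (0.00118), with a trended and robust prior (0.003), among genes above the median mean (0.0127) and with quantile normalization once more (0.0291). Nfkbie stood at 0.22 (adjusted p = 0.496) with hepcidin and at 0.60 with PBS, and the first minus the second is its net -0.38.

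With PBS, 0 of the 9 genes passed between 3 h and 1 h in limma, where 0.45% of all genes did. The 3 h arrays nevertheless lay wholly above those of 1 h for Nfkbia, Nfkbie, Nfkbiz and Nfkb2, and wholly below for Nfkbib, an order that 17.7% of all genes had in either direction. Nfkbiz stood at 0.61 (SE 0.16, adjusted p = 0.158) and Nfkbie at 0.60 (SE 0.14, adjusted p = 0.105), and both passed without hepcidin 3 h replicate 1 (adjusted p = 0.0425 and 0.0457). Over all alternatives run, 0 to 2 members passed here. An unadjusted p under 0.05 was found for 4 of the 9, the same 4 genes that lay wholly above, where 10.6% of all genes had one.

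The rest of the pathway was described through 6 lists, whose counts of rises stand beside 2.8% of all genes at 3 h and 0.527% at 1 h. Among 16 genes of the IKK and adaptor module, which carries the signal to the IkB proteins, 3 rose and 0 fell at 3 h, and 3 rose and 0 fell at 1 h, with a median log2 change of 0.14 and 0.10. At 3 h they were Ikbke, a kinase gene of the IKK-related branch, at 1.55, Birc3, an E3 ligase gene of the TNF receptor complex, at 1.09 and the adaptor gene Traf2 at 0.64. At 1 h they were Map3k8, a kinase gene of the ERK branch, at 0.93, Birc3 at 0.85 and Ikbke at 0.56. The call of Ikbke at 1 h (adjusted p = 0.0414) held in 2 of 12 cases with 1 array left out, with adjusted p up to 0.174. The IKK complex genes Ikbkb and Ikbkg stood at 0.15 and 0.14 at 3 h and at 0.11 and 0.05 at 1 h, and neither passed.

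The list of other IkB-like genes and IkB degradation held 11 measured genes, of which 0 passed at 3 h in limma and 1 rose at 1 h. At 3 h 2 of the 11 had an unadjusted p under 0.05, where 16.9% of all genes had one. The median log2 change of the list was 0.09 at 3 h and -0.03 at 1 h. The gene that rose at 1 h was Nfkbid, which encodes the atypical inhibitor IkBNS. It rose by 0.69 (SE 0.09, adjusted p = 0.00233) at 1 h and stood at 0.17 (adjusted p = 0.401) at 3 h, and the difference of its effects, -0.52, had an adjusted p of 0.104. Btrc, a receptor subunit of the ligase that marks IkB for degradation, stood at 0.03 at 3 h and at 0.00 at 1 h. Fbxw11, of the same list, stood at 0.27 (adjusted p = 0.0713) at 3 h and at 0.02 at 1 h.

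Of 11 genes listed as ubiquitin editing inhibitors, most of which take the signal down upstream of the IkB proteins, 5 rose and 0 fell at 3 h. The same counts held at 1 h. At 3 h Tnfaip3, the gene of A20, stood at 1.99, Tnip1 at 1.60, Zc3h12a, an RNase gene, at 0.97 and Tnip3 at 0.81. At 1 h Tnfaip3 stood at 2.81, Zc3h12a at 1.31, Tnip3 at 0.76 and N4bp1 at 0.68. Nuclear cofactors, such as the acetyltransferase genes Ep300 and Crebbp, passed in 0 of 12 cases at both times in limma, also under every alternative run, with 1 at an unadjusted p under 0.05 at 3 h and 0 at 1 h, where 16.9% and 6.82% of all genes had one. Their median log2 change was -0.05 at 3 h and 0.01 at 1 h.

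Textbook target genes were the list with the most calls: 18 of 22 rose at 3 h and 16 at 1 h, with 0 falls and median log2 changes of 1.18 and 1.00. At 3 h Cxcl2, Il1b, Ptgs2 and Cxcl10 led, with log2 changes from 5.27 down to 2.95. At 1 h Cxcl2, Tnf, Cxcl1 and Il1b led, from 6.12 down to 2.96. Some of these genes are known from the same earlier results as the members, so the counts are no independent support.

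Of the 7 genes reported to need IkBzeta in mouse macrophages, 1 rose at each time, Cebpd, a transcription factor gene, at 1.70 (SE 0.08) at 3 h and 0.82 (SE 0.08) at 1 h. Lcn2 stood at 1.82 (SE 0.50, adjusted p = 0.0571) at 3 h, Il12b at 0.35 (adjusted p = 0.0758) and Il6 at 0.18 (adjusted p = 0.311). At 3 h 4 of the 7 had an unadjusted p under 0.05 and at 1 h 1 did, where 16.9% and 6.82% of all genes had one. The median log2 change of the 7 was 0.35 at 3 h and 0.09 at 1 h. Most of the list read low: Il6, Csf2, Csf3 and Edn1 lay below the array medians in every group mean. Cebpd also lay below them with PBS at 1 h, at a mean of 4.54.

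**Figure D4:**
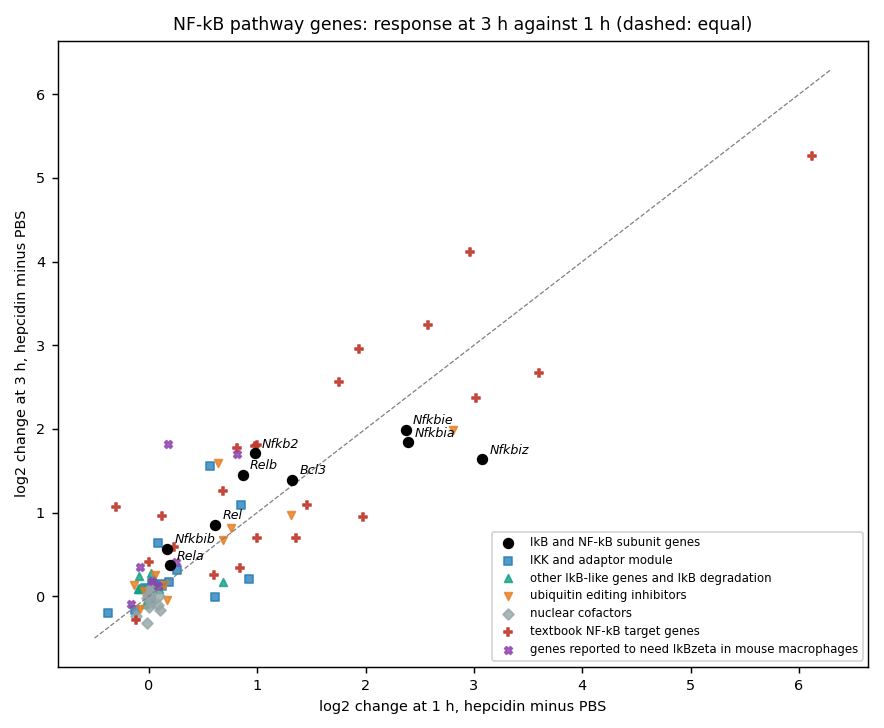
Each point is 1 gene, with its log2 change at 1 h (horizontal) and at 3 h (vertical), hepcidin minus PBS, for the 9 IkB and NF-kB subunit genes in black and the 6 pathway lists in colours. Nfkbiz, Nfkbia and Nfkbie lie below the dashed line of equal change, as does Tnfaip3 at 2.81 and 1.99, while Nfkb2, Relb and Nfkbib lie above it.

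The genes whose profiles over the 12 arrays were most like each member were sought among 20453 other genes, as a description with no test, since all points share the 4 groups. Nfkbia was most like Cxcl2 and Tnf (Pearson r = 0.995 for both), and Nfkbiz most like Ptger4 and Tnfaip3 (r = 0.986 and 0.985). Nfkb2 was most like Cebpb and Casp4 (r = 0.997 and 0.996), Relb most like Icam1 and Traf1 (r = 0.990 and 0.989), and Rela most like Tnfaip2 and Mtmr14 (r = 0.985 for both). Nfkbie was most like Cflar and Ralgds (r = 0.981 and 0.977), Bcl3 most like Icosl and Ralgds (r = 0.988 and 0.987) and Rel most like Ralgds and Nlrp3 (r = 0.979 for both). Nfkbib was most like Mmp14 and Abhd17c (r = 0.984 and 0.981). Among the members, Nfkbia and Nfkbiz (r = 0.978) and Nfkb2 and Relb (r = 0.976) were the closest pairs, and Nfkbib and Nfkbiz (r = 0.656) the least alike.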

How the data were processed

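Per the labels' protocols, RNA from 12 macrophage samples was turned into biotin-labelled cDNA and measured on whole-transcript arrays from Affymetrix. The authors' deposited table gives 1 value for each of 25429 probe sets and array. These were used as log2 values, since the submitters' processing notes name RMA, which returns log2; the notes also name Partek, without versions or roles, and the log base, build and array batches are not given in the sources used here. Background correction and batch could therefore not be varied. Symbols came from the platform's gene table, with 24675 probe sets of 1 gene each, and the other 754 probe sets stayed unnamed.

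The limma package (3.58.1, in R 4.3.3; lmFit, contrasts.fit, eBayes) was fitted to all 24675 genes, as 4 group means with 8 residual and 4.11 prior degrees of freedom. The 5 comparisons were hepcidin against PBS at 3 h and at 1 h, the difference of these effects, and 3 h against 1 h within PBS and within hepcidin. P-values were adjusted by Benjamini and Hochberg within each comparison. The hepcidin effects of the 2 times come from different arrays, while the other 3 comparisons use arrays of both. Errors are limma's SE; within-array differences of 2 genes have the SE of an unmoderated linear model. The procedure was also run on simulated arrays with known changes and independent noise. These held no shared replicate effect, so they say nothing about how such an effect would act.

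The members and lists were chosen with earlier results of these data known. Named are all measured members, of each list up to 4 genes called with the largest change at each time, and the 2 most similar profiles of each member. Other genes (markers, Ikbkb, Ikbkg, Btrc, Fbxw11, Ep300, Crebbp, Il6, Il12b, Csf2, Csf3, Edn1, Lcn2) are named after their values were seen. Of 89 genes in the 6 lists, 79 had a named probe set. No label says what the titles' replicate numbers share, so the fit has no replicate block, which was run as an alternative.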

Additional observations from a re-analysis of the deposited data

Results flagged for a closer look

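The hepcidin effect differed between 3 h and 1 h for 3 of the 9 genes, where 1.03% of all genes passed. This was a test of the difference itself in limma (adjusted over all genes). The difference was -1.44 for Nfkbiz (adjusted p = 0.0109), -0.55 for Nfkbia (adjusted p = 0.0277) and 0.73 for Nfkb2 (adjusted p = 0.0296), on the log2 scale. With 1 array left out, Nfkbia passed in only 2 of 12 cases and Nfkb2 in only 3 of 12. With 3 arrays a group, no search for single outlying arrays within a group was made.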

How the results depend on the processing

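All 9 rises at 3 h and 7 at 1 h kept their direction under every alternative run, and the member counts stayed at 7 to 9 at 3 h and 6 to 8 at 1 h, where 9 and 7 passed whichever array was left out. The lowest counts came from a fold minimum of 1.5 at 3 h and a fit of only the groups compared at 1 h. For the difference of effects, 3 members passed, but 5 with a trended and robust prior, among genes above the median mean or at an adjusted p under 0.1, with Nfkbib and Relb in addition, and 1 to 2 when single arrays were left out. Nfkbia lost this call with quantile normalization once more (adjusted p = 0.0507) or a fold minimum of 1.5, and Nfkb2 with median centring (0.0683) or without moderation (0.0744), where Nfkbiz was lost too (0.0575) and Nfkbib and Rela were gained (0.0339 and 0.0338). Relb was also gained with quantile normalization once more (0.0395) or array weights (0.0483). The difference of Bcl3, which passed nowhere, ranged from -0.0147 to 0.149 with single arrays left out, and was below 0 without hepcidin 1 h replicate 3 or PBS 3 h replicate 3 (-0.0103). Between 3 h and 1 h with hepcidin 3 members passed, not 5, with only the groups compared in the fit or a fold minimum of 1.5, and 4 to 5 with single arrays left out. Without moderation Nfkbiz was lost there (0.0502) and Rela gained, so the count stayed at 5. With PBS 1 passed, not 0, with a trended and robust prior, among genes above the median mean or with array weights, and 0 to 2 with single arrays left out. The replicate block changed no member's call: 9 members passed at 3 h, 7 at 1 h, 3 for the difference, 0 with PBS and 5 with hepcidin. Over all genes it gave 1615 calls at 3 h, 163 at 1 h (138 in full), 348 for the difference, 240 between the times with PBS and 1529 with hepcidin. Deviations from the group means correlated above 0 in 17 of 18 pairs of same-numbered arrays (-0.0054 to 0.246, over 0.1 in 9) and in 10 of 36 pairs with different numbers, which centring on group means pushes below 0. Of the 12 arrays, 7 correlated best with their own number in every other group. This is a hint from the data at a shared replicate effect, which the labels do not describe. Of the lists, the genes that need IkBzeta counted 2 at 3 h with the replicate block or a trended and robust prior, and 1 to 2 with arrays left out. They counted 3 at an adjusted p under 0.1, and 3 among genes above the median mean, where only 3 of the 7 were tested. Lcn2, Il12b and, in 1 case, Edn1 were gained. The list of other IkB-like genes counted 1 (Fbxw11), not 0, with a trended and robust prior, among genes above the median mean or at an adjusted p under 0.1. With the kB consensus 5 members, not 3, had a promoter match. Over all genes, 1316 passed at 3 h, but 805 with only the groups compared, 480 with the fold minimum and 837 to 1287 with single arrays left out. For the difference 254 passed, but 433 with a trended and robust prior, 412 among genes above the median mean, 391 at an adjusted p under 0.1 and 141 to 234 with single arrays left out. Between the times 1246 passed with hepcidin (407 to 1760 over the other settings, 721 to 1178 with single arrays left out) and 111 with PBS (7 to 333, and 23 to 126). Causes were not tested.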
